A study of Mus musculus with 18 samples.

Results

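The levels of all expressed genes after 24 h of carfilzomib (CFZ) were compared between 2 lines of NIH-3T3 cells, an established line of mouse embryonic fibroblasts. One line carried wild-type (WT) Nrf1 and the other an Nrf1 knockout (Nrf1-KO) made with CRISPR/Cas9, and both received 200 nM CFZ, an irreversible inhibitor of the proteasome. The comparison used 6 of the 18 libraries of the study, 3 of each line, chosen by their labels. WT and Nrf1-KO cells in DMSO, the vehicle, and after 6 h of the same dose of CFZ (3 libraries each) show which differences were present without the drug or early in it. The growth medium was the same for all groups, and the labels give no time for DMSO. Of 23420 gene symbols in the table, 11762 passed the expression filter and were tested. Each genotype is represented by a single line, so the knockout and other differences between the lines cannot be told apart.

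Nrf1, whose gene symbol is Nfe2l1, is a transcription factor made as a membrane protein of the endoplasmic reticulum (ER). It is normally pulled out of the membrane by the ATPase p97 and degraded by the proteasome; when the proteasome is inhibited, it is cleaved by the protease DDI2, enters the nucleus and binds antioxidant response elements (AREs) of proteasome genes with small MAF partners. Proteasome inhibition also lets unfolded proteins accumulate in the cytosol and the ER, which switch on the heat shock response and the unfolded protein response (UPR), the latter partly through the kinase PERK and the transcription factors ATF4 and CHOP. Progression through mitosis depends on the proteasome as well, since cyclins and securin must be degraded.

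The 6 libraries at 24 h held 10069996 to 18923605 counts each. Every library correlated best with its own group (Pearson's r of log2 CPM at least 0.995 within a line and at most 0.957 between the lines, over genes), and replicates differed by more than sampling noise. Levels are given below as CPM, counts relative to the library total, after TMM scaling, which sets the bulk of genes equal between libraries, and differences as log2 fold changes of Nrf1-KO over WT with their standard error (SE). A gene is called higher or lower where edgeR's quasi-likelihood test gave an adjusted p under 0.05. The replicates of a group were described by the study as biological replicates, so the p-values measure the spread between cultures of these 2 lines. Nfe2l1, on chromosome 11 from 96817414 to 96829968 of GRCm38, was read at 559, 555 and 580.0 CPM in the WT libraries and 209.5, 202 and 201 CPM in the Nrf1-KO libraries (log2 fold change -1.47, SE 0.0339, edgeR adjusted p = 1.99e-26). All Nrf1-KO libraries lay below all WT libraries, and transcript of the knocked-out gene was still counted. In DMSO the log2 fold change of Nfe2l1 was -1.31 and at 6 h it was -0.62.

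At 24 h of CFZ, 4189 genes (35.6% of those tested) were higher in Nrf1-KO cells and 4278 (36.4%) were lower. At least 2-fold higher were 789 genes (6.71%), and at least 2-fold lower were 651 (5.53%). In DMSO 3017 genes (25.7%) were higher and 3419 (29.1%) lower, and at 6 h 3593 (30.5%) were higher and 3621 (30.8%) lower. Those percentages are the background against which the counts of each gene group below are to be read. Where lines are said below not to overlap, this describes the named genes alone. Most of them were chosen for large differences, and the share of all genes tested without overlap is not given. The common coefficient of variation between replicates was 3.13%. The difference between the lines at 24 h was itself tested against the difference in DMSO, a test that shares no library between its arms. It was more positive at 24 h for 3498 genes (29.7%) and more negative for 3532 (30%), and by at least 2-fold for 479 (4.07%) and 533 (4.53%). Of the 789 genes at least 2-fold higher at 24 h, 495 (62.74%) were called higher in DMSO too and 68 were called lower there. Of the 651 genes at least 2-fold lower, 334 (51.31%) were called lower in DMSO too and 71 were called higher there.

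**Figure D1:**
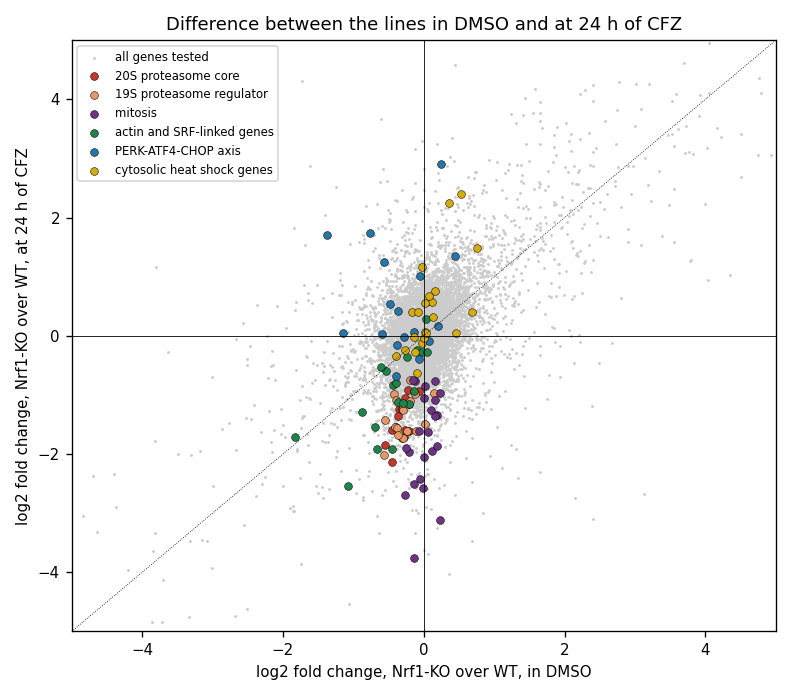
Log2 fold change of Nrf1-KO over WT in DMSO (horizontal axis) and at 24 h of CFZ (vertical axis) for each gene tested (grey) and for the members of 6 gene lists (coloured); the dotted line marks equal differences and 67 genes lie outside the axes. All proteasome and mitosis genes lie below the horizontal line, with DMSO medians of -0.30, -0.30 and 0.01.

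The proteasome genes were lower in Nrf1-KO cells without exception. All 14 genes of the 20S core, the barrel that holds the protease sites, and all 18 genes of the 19S regulator, the cap that recognises ubiquitin and unfolds substrates, were called lower at 24 h, 12 and 14 of them at least 2-fold. Their median log2 fold changes were -1.47 and -1.46, beside -0.0031 over all genes tested. In DMSO the same medians were -0.30 and -0.30, with 13 and 16 genes called lower, 1 gene of the 19S list called higher and 1 gene of each list not called. At 6 h they were -1.38 and -1.47, with all 32 genes lower. Every one of the 32 differences was more negative at 24 h than in DMSO.

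The lowest ratio of the 20S core was that of Psmb3, a beta ring subunit on chromosome 11 from 97703399 to 97713500 of GRCm38, with 493, 500.2 and 508 CPM in the WT libraries and 107, 116 and 119 CPM in the Nrf1-KO libraries (log2 fold change -2.13, SE 0.0356, edgeR adjusted p = 8.87e-30). Psma1, an alpha ring subunit, was at 334, 358 and 354 CPM in the WT libraries and 93.4, 96.4 and 100.1 CPM in the Nrf1-KO libraries (log2 fold change -1.85, SE 0.0397, edgeR adjusted p = 2.83e-27). In the 19S regulator, Psmd3, a lid subunit, was at 682, 679 and 679.9 CPM in the WT libraries and 167, 170.2 and 167 CPM in the Nrf1-KO libraries (log2 fold change -2.02, SE 0.0311, edgeR adjusted p = 3.56e-30). For these 3 genes the lines did not overlap, and the libraries within a line spanned far less than the gap between the lines. Psmc4, an ATPase of the ring that threads substrates into the core, stood at 371 ± 9.07 CPM in WT and 111 ± 0.76 CPM in Nrf1-KO (SD, n = 3; log2 fold change -1.74, SE 0.0324, edgeR adjusted p = 1.09e-28), and Psmd1, a scaffold of the regulator, had a log2 fold change of -1.67. Among the other proteasome genes with primers in the study, Psma7 (-1.60), Psmb7 (-1.23) and Psmd12 (-1.60) were lower as well. The smallest difference of the 20S core was -0.91 and that of the 19S regulator -0.75. Psma5 (-1.72) shares 20.7% of its transcript stretches with a pseudogene, and 11.8% of the exonic bases of Psmb7 overlap a gene on the opposite strand, so reads of these genes may be counted elsewhere.

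Of the 32 proteasome genes, 26 have a promoter in the RefSeq table (GRCm38.p6), of which the 250 bases before the start were searched here and below, and 5 of these (19.2%) hold the ARE core TGACNNNGC on either strand, beside 14.1% of the promoters of all genes tested. None of these matches overlapped an AP-1 site (TGANTCA). The stretches around the matches are shown because the ARE is the site that Nrf1 is known to bind; capitals mark the match, which stands as its reverse complement where the letters begin with GC.
Psmd12 (chr11:107479278-107479319, plus strand): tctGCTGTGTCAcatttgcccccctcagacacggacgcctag
Psmc6 (chr14:45329574-45329635, plus strand): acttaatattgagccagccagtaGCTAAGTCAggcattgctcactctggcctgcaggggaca
Psmb6 (chr11:70525318-70525356, plus strand): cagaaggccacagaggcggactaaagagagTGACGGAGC
Psmb5 (chr14:54618004-54618072, minus strand): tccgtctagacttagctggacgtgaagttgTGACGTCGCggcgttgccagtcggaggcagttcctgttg
Adrm1 (chr2:180171396-180171464, plus strand): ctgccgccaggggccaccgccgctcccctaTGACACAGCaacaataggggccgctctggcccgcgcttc
The match lay 243 bases before the start in Psmd12 and 5 before it in Psmb6. These 5 genes had log2 fold changes from -1.60 (Psmd12) to -1.08 (Adrm1) with a median of -1.35, and the proteasome genes whose listed window has no match had a median of -1.54, so genes without the letters in this window differed between the lines as well.

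Genes around the proteasome differed less uniformly. Of the 8 tested assembly chaperones 4 were lower and 4 were not called. Psmd5, a chaperone of the 19S base, stood at 155 ± 1.28 CPM in WT and 59.4 ± 3.71 CPM in Nrf1-KO (SD, n = 3; log2 fold change -1.38, SE 0.0413, edgeR adjusted p = 1.51e-23), although it was slightly higher in Nrf1-KO cells in DMSO (0.15, edgeR adjusted p = 0.00175). Pomp, which matures the 20S core, had the same turn, from 0.33 in DMSO to -0.75 at 24 h. Psmd9 was also called lower (-0.25), with 25.5% of its exonic bases under a gene of the opposite strand, as was Psmg3 (-0.18, edgeR adjusted p = 0.046). The call for Psmg3 was lost under DESeq2 (adjusted p = 0.128), with upper-quartile scaling, without the expression filter, in the model of the compared groups, and without WT replicate 2 or 3 or Nrf1-KO replicate 1 or 2 (edgeR adjusted p from 0.0786 to 0.21).

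Of the 7 tested activators and immunoproteasome subunits 4 were lower and 3 were not called. Psme4, which encodes the activator PA200, was at 907, 885 and 908 CPM in the WT libraries and 369, 359 and 344 CPM in the Nrf1-KO libraries (log2 fold change -1.33, SE 0.0321, edgeR adjusted p = 5.56e-26), with no overlap between the lines. Psme2 (-0.37), Psmf1 (-0.36) and Psme3 (-0.17) were lower by less, and the interferon-inducible subunit Psmb9 was at low levels in both lines and not called, at 1.52, 0.66 and 0.93 CPM in the WT libraries and 1.48, 0.999 and 1.14 CPM in the Nrf1-KO libraries.

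Among the genes that process NFE2L1 or bind with it, 4 of 14 tested were higher and 8 lower. Vcp, which encodes p97, was at 1294, 1263 and 1258 CPM in the WT libraries and 599, 575 and 539 CPM in the Nrf1-KO libraries (log2 fold change -1.16, SE 0.0379, edgeR adjusted p = 1.56e-22), and 47.3% of its transcript stretches are shared with a related sequence, Vcp-rs. Nploc4, a p97 cofactor (-1.19), and Ngly1, the enzyme that removes sugars from NFE2L1 (-1.43), were lower too. Keap1, the adaptor that directs NRF2 to degradation, stood at 81.02, 86.3 and 82.1 CPM in the WT libraries and 28.2, 29.01 and 28.8 CPM in the Nrf1-KO libraries (log2 fold change -1.54, SE 0.0482, edgeR adjusted p = 4.44e-23). The lines did not overlap for Keap1 at 24 h, and in DMSO the gene was not called (0.02, edgeR adjusted p = 0.727). Ddi2, the protease that activates NFE2L1, was higher (0.50), as was Bach1, a repressor at the same elements (0.78). Nfe2l2, which encodes NRF2, was not called, with 144, 153 and 147 CPM in the WT libraries and 155, 155 and 147 CPM in the Nrf1-KO libraries (log2 fold change 0.04, SE 0.0342, edgeR adjusted p = 0.283); it was called higher with upper-quartile scaling (log2 fold change 0.083, edgeR adjusted p = 0.0288) and without Nrf1-KO replicate 3 (0.081, edgeR adjusted p = 0.0436).

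Of 14 ubiquitin and recycling genes 5 were higher and 8 lower. Usp14, a deubiquitinase of the 19S cap, was at 319, 328 and 328 CPM in the WT libraries and 154, 159 and 162 CPM in the Nrf1-KO libraries (log2 fold change -1.04, SE 0.0355, edgeR adjusted p = 4.53e-22), against a log2 fold change of 0.29 in DMSO, with 26% of its exonic bases under a gene of the opposite strand. Rad23b, a shuttle that carries ubiquitinated proteins to the proteasome, was lower (-0.89). Zfand2a, a stress-inducible binding partner of the 19S cap, was higher in DMSO (0.33), lower at 6 h (-0.84) and higher at 24 h (0.73).

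**Figure D2:**
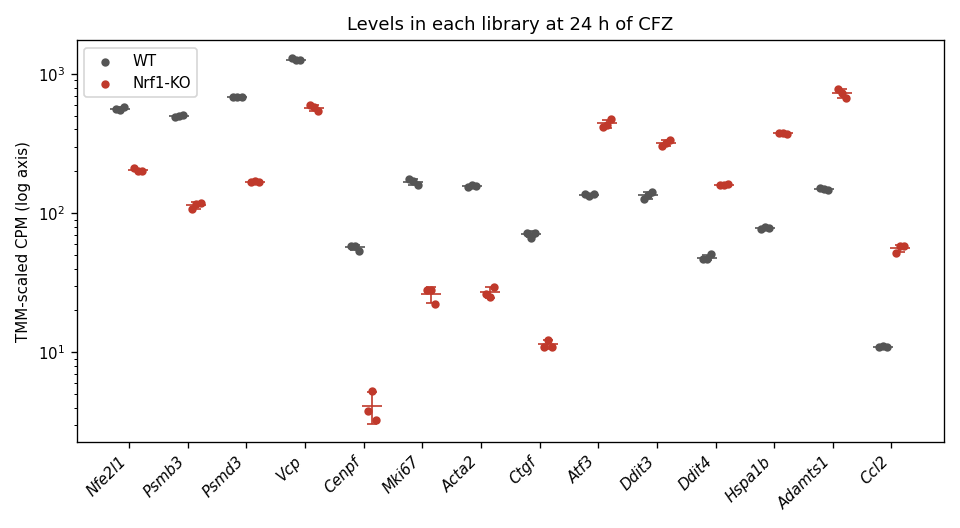
TMM-scaled CPM (log axis) of 14 genes in each library at 24 h of CFZ, WT grey and Nrf1-KO red; points are libraries, horizontal marks are means and bars are SD (n = 3). In none of the 14 genes do the lines overlap: Nfe2l1, proteasome, Vcp, mitosis, actin and Ctgf values lie lower in Nrf1-KO, and Atf3, Ddit3, Ddit4, Hspa1b, Adamts1 and Ccl2 values lie higher. The share of all genes tested without overlap is not given.

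Of the lists, mitosis genes had the median difference between the lines that moved most from DMSO to 24 h. All 23 were called lower in Nrf1-KO cells at 24 h, 18 of them at least 2-fold, with a median log2 fold change of -1.62. In DMSO the median was 0.01, with 8 genes higher and 7 lower, and at 6 h it was 0.088, with 8 higher and 6 lower. The difference at 24 h was more negative than in DMSO for all 23. Fewer dividing cells in the Nrf1-KO cultures and less of these transcripts per cell cannot be told apart in bulk RNA, which holds for each list here.

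Cenpf, a kinetochore protein encoded on chromosome 1 from 189640606 to 189688086 of GRCm38, was at 58.2, 58.4 and 53.6 CPM in the WT libraries and 3.8, 5.27 and 3.23 CPM in the Nrf1-KO libraries (log2 fold change -3.76, SE 0.11, edgeR adjusted p = 7.83e-24). Mki67, which encodes the proliferation antigen Ki-67, was at 177, 169.5 and 159.7 CPM in the WT libraries and 27.96, 28.1 and 22.1 CPM in the Nrf1-KO libraries (log2 fold change -2.69, SE 0.0934, edgeR adjusted p = 6.64e-22). Plk1, a kinase that drives entry into mitosis, was at 16.3, 18.6 and 17.5 CPM in the WT libraries and 2.89, 2.83 and 3.11 CPM in the Nrf1-KO libraries (log2 fold change -2.58, SE 0.11, edgeR adjusted p = 1.48e-19). In each, all Nrf1-KO libraries lay below all WT libraries, by more than the range within a line. Nuf2, a part of the kinetochore, had a log2 fold change of -3.11 at 24 h and of 0.23 in DMSO, and Kif2c, a kinesin that removes microtubule ends, of -2.57 and 0.22; both pairs were called in opposite directions. The smallest difference of the list was that of Kif23 (-0.75). Outside the list, Hmmr, a spindle protein (-3.69), Iqgap3 (-2.95), the Holliday junction resolvase Gen1 (-2.93) and Esco2, which acetylates cohesin (-2.90), were among the 15 lowest ratios of all called genes that averaged 50 counts or more. For these 4 genes the log2 fold changes in DMSO ran from -0.11 to 0.10 and were not called.

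Of the 19 mitosis genes with a listed promoter, 16 (84.2%) hold a CCAAT box (CCAAT) and 7 (36.8%) the cell cycle homology region (TTTGAA), on either strand. Over all genes tested the shares were 41.6% and 12.4%, and in the genes at least 2-fold lower at 24 h they were 42.7% and 15.1%. Both motifs were searched after the list's values had been seen. Because the list was drawn up as mitosis genes, its shares may come from that choice. A tie of these motifs to the difference between the lines was not tested. Stretches around 3 matches, in the genes with the largest differences of the 7 (-2.69 to -0.84), to the cell cycle homology region, the element through which genes of mitosis are known to be held down in resting cells, are shown with the match in capitals, as its reverse complement where it reads TTCAAA. The stretch of Mki67 also holds a match in small letters, 113 bases before the start, beside the marked match at 95.
Mki67 (chr7:135716442-135716507, minus strand): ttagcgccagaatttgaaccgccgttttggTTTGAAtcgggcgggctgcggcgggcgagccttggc
Kif11 (chr19:37376333-37376381, plus strand): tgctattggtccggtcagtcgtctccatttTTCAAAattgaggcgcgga
Top2a (chr11:99024190-99024242, minus strand): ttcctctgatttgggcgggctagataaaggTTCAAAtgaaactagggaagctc
Kif11, a kinesin that separates spindle poles, had a log2 fold change of -2.51 and Top2a, the topoisomerase of mitotic chromosomes, of -1.89.

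Genes of DNA replication and the G1/S transition were lower by less, with 15 of 22 called lower and 4 higher and a median of -0.16, beside 0.31 in DMSO, where 17 were higher and none lower. Cdc45, a replication fork helicase factor, was at 42.6 ± 3.28 CPM in WT and 24.6 ± 1.24 CPM in Nrf1-KO (SD, n = 3; log2 fold change -0.80, SE 0.0638, edgeR adjusted p = 9.70e-13), and Rrm2, a subunit of ribonucleotide reductase, had a log2 fold change of -0.73. Mcm7, of the replicative helicase, was higher, with 93.3, 87.4 and 88.1 CPM in the WT libraries and 185, 182 and 181 CPM in the Nrf1-KO libraries (log2 fold change 1.03, SE 0.0447, edgeR adjusted p = 2.09e-19), and so was the licensing factor Cdt1 (0.59). The 2 lines did not overlap for Mcm7. In DMSO all 4 of these genes were higher in Nrf1-KO cells, by 0.40 to 0.47.

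Of 17 tested p53 targets and inhibitors of cyclin-dependent kinases 12 were higher, 3 lower and 2 not called (median 0.25; in DMSO -0.20, with 3 higher and 9 lower). Trp53inp1, a p53-induced stress protein, was at 66.5, 61.04 and 61.2 CPM in the WT libraries and 175, 161 and 163 CPM in the Nrf1-KO libraries (log2 fold change 1.41, SE 0.0424, edgeR adjusted p = 1.55e-23). Mdm2, the ligase that degrades p53 (0.92), and Btg2, a p53 target that slows proliferation (0.82), were higher too. Fas, the death receptor, was lower at 14.9, 14.9 and 14.5 CPM in the WT libraries and 5.28, 5.1 and 5.26 CPM in the Nrf1-KO libraries (log2 fold change -1.50, SE 0.121, edgeR adjusted p = 1.27e-12). The lines did not overlap for Trp53inp1 or Fas. Cdkn2a and Cdkn2b had 0 counts in all 6 libraries, which allows up to 0.0318 CPM.

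The BCL2 family, caspases and death receptors were split, with 8 of 21 tested higher, 4 lower and 9 not called. Bcl2l11, which encodes the death inducer BIM, was at 10.4, 9.11 and 8.24 CPM in the WT libraries and 22.9, 22.5 and 22.3 CPM in the Nrf1-KO libraries (log2 fold change 1.31, SE 0.0903, edgeR adjusted p = 2.99e-14), and in DMSO it was lower in Nrf1-KO cells (-0.63). Bmf, of the same class, turned alike, from -1.05 in DMSO to 1.56, at 0.76 ± 0.142 CPM in WT and 2.21 ± 0.385 CPM in Nrf1-KO (SD, n = 3). Bak1, an effector in the mitochondrial membrane, was lower (-0.84), as were Tnfrsf1a (-0.47), Bid (-0.44) and Tnfrsf10b (-0.28). For Bcl2l11 no library of one line reached the range of the other.

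**Figure D3:**
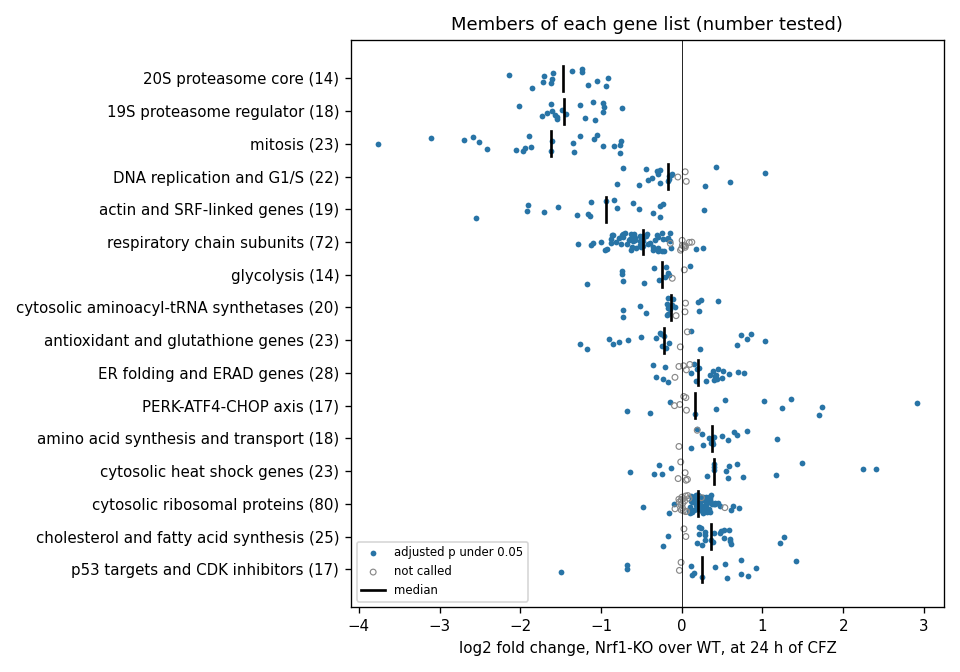
Log2 fold change of Nrf1-KO over WT at 24 h of CFZ for each tested member of 16 gene lists (rows, number tested in parentheses); filled points passed an adjusted p of 0.05, open points did not, and bars mark medians. All points of the 20S, 19S and mitosis rows lie left of 0, those of the stress rows scatter on both sides, and the point farthest right in the PERK row is Gdf15, which had almost no counts in WT cells.

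In the PERK-ATF4-CHOP axis 9 of 17 tested genes were higher, 3 lower and 5 not called. The median was 0.16 at 24 h, 0.33 at 6 h and -0.37 in DMSO, where 11 of the 17 were lower and 2 higher. Atf3, a transcription factor of this axis on chromosome 1 from 191170296 to 191218039 of GRCm38, was at 137, 133 and 137 CPM in the WT libraries and 417, 433 and 474 CPM in the Nrf1-KO libraries (log2 fold change 1.70, SE 0.0421, edgeR adjusted p = 1.05e-25). Ddit3, which encodes CHOP, was at 127, 135 and 142 CPM in the WT libraries and 306, 318 and 338 CPM in the Nrf1-KO libraries (log2 fold change 1.25, SE 0.0386, edgeR adjusted p = 3.44e-23). Ddit4, which restrains mTORC1, was at 46.8, 46.7 and 50.5 CPM in the WT libraries and 159, 159.6 and 161 CPM in the Nrf1-KO libraries (log2 fold change 1.73, SE 0.0444, edgeR adjusted p = 2.42e-25). All 3 were higher in each Nrf1-KO library than in any WT library, and all 3 had been called lower in DMSO, by -1.37, -0.57 and -0.77.

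Ppp1r15a, which encodes the phosphatase subunit GADD34 that reverses PERK signalling, was higher (1.02, edgeR adjusted p = 1.90e-21), as was the secreted Stc2 (1.35). Trib3, an inhibitory pseudokinase, was not called at 24 h, with 62.7, 62.8 and 65.2 CPM in the WT libraries and 64.2, 65.1 and 68.6 CPM in the Nrf1-KO libraries (0.05, edgeR adjusted p = 0.273), though its log2 fold change in DMSO was -1.15; with upper-quartile scaling it was called higher (edgeR adjusted p = 0.0481). Cebpb was lower (-0.68, edgeR adjusted p = 1.34e-04) with lines that overlapped, at 40.1, 40.1 and 25.4 CPM in the WT libraries and 27.7, 17.1 and 20.99 CPM in the Nrf1-KO libraries. Gdf15 was at 0, 0.12 and 0.062 CPM in the WT libraries and 0.563, 0.666 and 0.507 CPM in the Nrf1-KO libraries, and these WT levels are near the limit of 0.0684 CPM that 3 counts over the group set, so no fold is given. Atf5 (-0.39) and Nupr1 (-0.15) were the other members called lower, Nupr1 no longer so without Nrf1-KO replicate 1 (edgeR adjusted p = 0.0819).

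Of the 16 genes of this axis with a listed promoter, 4 (25%) hold a C/EBP-ATF element (TGATGNAA), the composite site that ATF4 is known to bind, beside 2.43% over all genes tested and 6.24% of the genes at least 2-fold higher. Because the list was drawn up around ATF4, its share may come from that choice. A tie of the element to the difference between the lines was not tested. The stretches of the 3 with the largest differences show the element in capitals, read as its reverse complement.
Atf3 (chr1:191183406-191183473, minus strand): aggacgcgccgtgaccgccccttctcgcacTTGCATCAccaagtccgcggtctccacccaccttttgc
Chac1 (chr2:119351019-119351086, plus strand): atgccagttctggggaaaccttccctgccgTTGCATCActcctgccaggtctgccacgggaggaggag
Nupr1 (chr7:126625543-126625610, minus strand): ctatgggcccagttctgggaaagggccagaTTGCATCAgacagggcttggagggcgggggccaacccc
The log2 fold changes of these 3 genes were 1.70 for Atf3, 0.43 for Chac1, a glutathione-degrading enzyme, and -0.15 for Nupr1, so genes with the element were not all higher.

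Of 18 tested genes of amino acid synthesis and transport 16 were higher and none was lower, with a median of 0.38; in DMSO 11 of them were lower and 2 higher (median -0.17). Pycr1, of proline synthesis, was at 4.88, 5.88 and 6.26 CPM in the WT libraries and 12.96, 14.5 and 11.9 CPM in the Nrf1-KO libraries (log2 fold change 1.18, SE 0.11, edgeR adjusted p = 3.60e-11). The transporters Slc7a1, for cationic amino acids, Slc38a2, for small neutral ones, and Slc6a9, for glycine, had log2 fold changes of 0.80, 0.69 and 0.65. Pycr1 did not overlap between the lines. Asns, the asparagine synthetase that ATF4 induces, was not called, at 314, 316 and 330.5 CPM in the WT libraries and 305, 316 and 318 CPM in the Nrf1-KO libraries (-0.03, edgeR adjusted p = 0.371), and its sign turned with upper-quartile scaling (0.0077) and without Nrf1-KO replicate 1 (0.0016).

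The cytosolic aminoacyl-tRNA synthetases, a further class of ATF4 targets, did not move together: 13 of 20 were lower, 4 higher and 3 not called (median -0.13), and in DMSO 14 were lower and 1 higher (median -0.21). The difference at 24 h was more positive than in DMSO for 9 and more negative for 5. Aars, for alanine, was at 1345, 1342 and 1346 CPM in the WT libraries and 828, 818 and 790.3 CPM in the Nrf1-KO libraries (log2 fold change -0.73, SE 0.0318, edgeR adjusted p = 2.81e-19), with 21.4% of its transcript stretches shared with the locus of Exosc6, and Hars, for histidine, had a log2 fold change of -0.73. Tars, for threonine, was higher (0.45), as were Vars, Gars and Sars, at 0.24, 0.22 and 0.20.

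Of 28 tested genes of ER folding and ER-associated degradation 18 were higher, 5 lower and 5 not called, with a median of 0.20 beside -0.03 in DMSO; none differed 2-fold. Hspa5, the ER chaperone BiP, was at 3124, 3324 and 3278 CPM in the WT libraries and 5131, 5204 and 5425 CPM in the Nrf1-KO libraries (log2 fold change 0.70, SE 0.0343, edgeR adjusted p = 6.21e-18). Herpud1, an ER membrane protein of degradation, was at 96.3, 95.8 and 97.5 CPM in the WT libraries and 161, 170.3 and 165 CPM in the Nrf1-KO libraries (log2 fold change 0.78, SE 0.0345, edgeR adjusted p = 4.06e-19). Neither overlapped between the lines. In DMSO Hspa5 was called lower (-0.13, edgeR adjusted p = 0.0022) and Herpud1 was not called. At 6 h Hspa5 was called lower (-0.12) and Herpud1 higher (0.30). Over the list at 6 h, 8 genes were higher and 8 lower, with a median of 0.0075. Ero1lb, an oxidase of the ER (0.59), Manf (0.52) and Ern1, the sensor IRE1 (0.43), were higher by less. Ero1l was called lower in DMSO (-0.82) and higher at 24 h (0.35), the only gene of the list whose difference moved by at least 2-fold. Ifrd1, outside this list but among the UPR genes with primers in the study, was higher too (0.29). The 5 lower genes were Syvn1 (-0.36), Dnajc3 (-0.32), Derl2 (-0.24), Sdf2l1 (-0.20) and Atf6 (-0.17), of which Sdf2l1 was not called without WT replicate 2 or Nrf1-KO replicate 1 (edgeR adjusted p = 0.0651 and 0.0563).

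Among cytosolic heat shock genes 13 of 23 tested were higher, 5 lower and 5 not called, with a median of 0.40 beside 0.02 in DMSO and 0.27 at 6 h. Hspa1b, an inducible HSP70, was at 76.95, 80.05 and 78.5 CPM in the WT libraries and 376, 379 and 368 CPM in the Nrf1-KO libraries (log2 fold change 2.25, SE 0.0412, edgeR adjusted p = 6.71e-29). Hsph1, the HSP110 that exchanges nucleotide on HSP70, was at 861, 855 and 858 CPM in the WT libraries and 2422, 2422 and 2381 CPM in the Nrf1-KO libraries (log2 fold change 1.49, SE 0.033, edgeR adjusted p = 7.21e-27). Dnajb1, an HSP40 partner, was at 333, 337 and 339 CPM in the WT libraries and 721, 754 and 785 CPM in the Nrf1-KO libraries (log2 fold change 1.16, SE 0.0424, edgeR adjusted p = 2.34e-21). None of the 3 overlapped between the lines. Hspa1a (2.40) shares 43.8% of its transcript stretches with Hspa1b, so the split of reads between this pair is uncertain. The 5 lower genes were Hsf2, a heat shock factor (-0.64), Dnajb4 (-0.34), Hspb8 (-0.28), Dnajb2 (-0.24) and Hspa4 (-0.13).

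The antioxidant and glutathione genes, many of them NRF2 targets, went both ways: 7 of 23 were higher and 14 lower (median -0.22), beside 5 higher and 13 lower in DMSO (-0.16) and 2 higher and 21 lower at 6 h (-0.61). Gsr, glutathione reductase, was at 238, 253 and 246 CPM in the WT libraries and 106, 104 and 98.5 CPM in the Nrf1-KO libraries (log2 fold change -1.26, SE 0.0415, edgeR adjusted p = 1.68e-22). Gsto1, a glutathione transferase, was at 215, 229.7 and 231 CPM in the WT libraries and 439, 467 and 481 CPM in the Nrf1-KO libraries (log2 fold change 1.03, SE 0.0358, edgeR adjusted p = 6.16e-22). The lines did not overlap for either. Blvrb, biliverdin reductase B (-1.18), and Me1, malic enzyme (-0.90), were lower. Slc7a11 (0.73) and Nqo1 (0.81) were higher, and in DMSO both had been called lower (-0.81 and -0.24). The metallothionein genes Mt1 (0.38) and Mt2 (0.74), which bind zinc, were higher, while the zinc exporter Slc30a1 was not called (0.10, edgeR adjusted p = 0.226). Of the exonic bases of Mt2, 73.5% lie under a gene of the opposite strand.

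Autophagy genes were called higher for 4 and lower for 8 of 19, and lysosome genes for 9 and 9 of 20, so neither list moved to one side (medians -0.053 and -0.022, the latter 0.019 with upper-quartile scaling). The proteases Ctsl and Ctsd parted: Ctsl was at 779, 786 and 779 CPM in the WT libraries and 2160.4, 2268 and 2470.0 CPM in the Nrf1-KO libraries (log2 fold change 1.56, SE 0.0414, edgeR adjusted p = 5.90e-25). Ctsd was at 1563, 1598 and 1607 CPM in the WT libraries and 687, 723 and 746 CPM in the Nrf1-KO libraries (log2 fold change -1.14, SE 0.0399, edgeR adjusted p = 7.10e-22). Neither overlapped between the lines, though 34.2% of the transcript stretches of Ctsd are shared with another locus and 26.8% of the exonic bases of Ctsl lie under a gene of the opposite strand. Gabarapl1, of the autophagosome membrane, was lower (-0.68; -1.34 at 6 h), as was Tfeb, a transcription factor of lysosome genes (-1.08). Calcoco1, an autophagy receptor, was higher (0.58).

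The actin cytoskeleton and its SRF-linked genes were lower for 18 of 19 members, 9 of them at least 2-fold, with a median of -0.93. In DMSO 16 of the 19 were already lower, with a median of -0.40, and at 6 h 14 were (-0.28). Acta2, smooth muscle actin, on chromosome 19 from 34241090 to 34255590 of GRCm38, was at 154, 160.3 and 156 CPM in the WT libraries and 26.1, 25.1 and 29.6 CPM in the Nrf1-KO libraries (log2 fold change -2.54, SE 0.0565, edgeR adjusted p = 7.44e-27). Cnn2, a calponin, was at 110.3, 115 and 116 CPM in the WT libraries and 27.1, 31.3 and 31.3 CPM in the Nrf1-KO libraries (log2 fold change -1.92, SE 0.0469, edgeR adjusted p = 7.71e-26). In both, the lines lay far apart relative to the range within a line. Tagln, transgelin (-1.91), was lower too, with 67.9% of its exonic bases under a gene of the opposite strand, and Cnn1 (-1.71) was lower at low levels. Cnn3 was the member that was higher (0.28, edgeR adjusted p = 2.86e-08).

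Among the 16 actin genes with a listed promoter 5 (31.2%) hold a CArG box, the site that SRF is known to bind. The share was 1.45% over all genes tested and 2.97% in the genes at least 2-fold lower at 24 h. This motif, too, was searched after the values had been seen. The list was drawn up as SRF-linked genes, so its share may come from that choice. A tie of the motif to the difference between the lines was not tested. The stretches of the 3 with the largest differences carry the box in capitals.
Cnn2 (chr10:79988514-79988583, plus strand): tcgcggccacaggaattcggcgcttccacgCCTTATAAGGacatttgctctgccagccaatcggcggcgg
Myl9 (chr2:156775273-156775342, plus strand): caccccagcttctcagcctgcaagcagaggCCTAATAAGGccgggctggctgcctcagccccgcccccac
Actg1 (chr11:120348546-120348615, minus strand): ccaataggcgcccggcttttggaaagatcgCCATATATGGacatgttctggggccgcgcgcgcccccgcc
Myl9, a myosin light chain, had a log2 fold change of -1.54 and Actg1, a cytoplasmic actin, of -1.13, while Srf itself, with 2 boxes, had -0.27.

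Ctgf and Cyr61, matricellular proteins and known targets of both SRF and YAP, were lower. Ctgf was at 72.3, 66.4 and 72.5 CPM in the WT libraries and 10.9, 12.3 and 10.97 CPM in the Nrf1-KO libraries (log2 fold change -2.61, SE 0.0922, edgeR adjusted p = 9.91e-22), and Cyr61 at 426, 407 and 426 CPM in the WT libraries and 104, 95.97 and 98.7 CPM in the Nrf1-KO libraries (log2 fold change -2.08, SE 0.0522, edgeR adjusted p = 1.47e-25). The lines did not overlap, and in DMSO the log2 fold changes were smaller, at -0.55 and -0.27. Over the fibroblast matrix proteins 10 of 17 tested were higher and 6 lower. Dcn, decorin, was at 11.99, 11.8 and 11.4 CPM in the WT libraries and 30.7, 30.2 and 31.96 CPM in the Nrf1-KO libraries (log2 fold change 1.40, SE 0.0794, edgeR adjusted p = 2.19e-16), and Fbn1, fibrillin, was lower at 246 ± 18.1 CPM in WT and 95.8 ± 18.5 CPM in Nrf1-KO (SD, n = 3; -1.36), with -1.71 in DMSO.

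Of 29 tested collagens 13 were higher and 9 lower, with a median of 0.02 (-0.011 when scaled by library size alone). Col3a1, a fibrillar collagen, was at 110.5, 116 and 114 CPM in the WT libraries and 399, 384 and 367 CPM in the Nrf1-KO libraries (log2 fold change 1.75, SE 0.045, edgeR adjusted p = 2.69e-25), against -0.25 in DMSO. Col1a1, the major fibrillar collagen, was not called, at 916, 835 and 867 CPM in the WT libraries and 946, 798 and 676 CPM in the Nrf1-KO libraries (-0.11, edgeR adjusted p = 0.281), and its lines overlapped; without Nrf1-KO replicate 1 it was called lower (-0.22, edgeR adjusted p = 0.0206), as it was without the expression filter (-0.096, edgeR adjusted p = 0.00886), and without Nrf1-KO replicate 3 its log2 fold change was 0.016. Col10a1 (2.52) and Col11a2 (2.33) were higher and Col2a1 (-2.71) lower, all at low levels. Among matrix proteases and their inhibitors 12 of 17 tested were higher and 3 lower. Adamts1 was at 151, 148 and 147 CPM in the WT libraries and 778, 732 and 675 CPM in the Nrf1-KO libraries (log2 fold change 2.29, SE 0.0451, edgeR adjusted p = 3.44e-28), and Mmp9 at 11.4, 11.9 and 14.3 CPM in the WT libraries and 0.986, 0.888 and 0.444 CPM in the Nrf1-KO libraries (log2 fold change -4.02, SE 0.175, edgeR adjusted p = 2.52e-19), so these proteases parted with no overlap in either. The inhibitors Timp2 (-0.73) and Timp1 (-0.34) were lower. Serpine2 had 0 counts in all WT libraries at 24 h, which allows up to 0.0684 CPM, and 0.211, 0.0555 and 0.127 CPM in the Nrf1-KO libraries.

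Chemokine genes lay at both ends. Ccl2 was at 10.9, 11.1 and 10.9 CPM in the WT libraries and 52.1, 58.03 and 57.8 CPM in the Nrf1-KO libraries (log2 fold change 2.35, SE 0.0748, edgeR adjusted p = 6.41e-23). Its neighbour in the genome Ccl7 was at 15.8, 17.99 and 15.2 CPM in the WT libraries and 61.3, 67.7 and 79.7 CPM in the Nrf1-KO libraries (log2 fold change 2.09, SE 0.0859, edgeR adjusted p = 5.92e-20). Cxcl12, which guides CXCR4-bearing cells, was at 8.03, 9.47 and 8.12 CPM in the WT libraries and 1.55, 1.72 and 1.08 CPM in the Nrf1-KO libraries (log2 fold change -2.56, SE 0.168, edgeR adjusted p = 9.19e-15). None overlapped, while over 19 tested NF-kB and inflammatory genes 7 were higher, 8 lower and 4 not called, a median of -0.029 (0.012 with upper-quartile scaling). The neutrophil chemokine Cxcl5 was called lower at 24 h (-0.46, edgeR adjusted p = 0.00524), against 2.49 in DMSO, and the call at 24 h was lost without WT replicate 2 (edgeR adjusted p = 0.0754).

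Of 23 immediate early and AP-1 genes 13 were higher and 6 lower. Dusp4 and Dusp6, phosphatases that end MAP kinase signals, were higher at 24 h (1.89 and 1.75) and in DMSO (2.27 and 1.14). Fos, at low levels, was at 0.813, 0.779 and 0.682 CPM in the WT libraries and 2.46, 2.66 and 1.9 CPM in the Nrf1-KO libraries (log2 fold change 1.64, SE 0.258, edgeR adjusted p = 1.28e-06), against -0.84 in DMSO. Of 15 tested interferon response genes 7 were higher, 3 lower and 5 not called. Gbp2, a guanylate-binding protein, was higher (1.09), and Isg15 (-0.63) and Ifi35 (-0.55) were among the lower.

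Metabolic genes differed as wide groups with small steps. Nuclear-encoded respiratory chain subunits were lower for 60 of 72 tested and higher for 2, with a median of -0.48; in DMSO 16 were lower and 14 higher (median -0.031), and at 6 h 52 were lower (-0.25). Ndufa10, of complex I, was at 213, 218 and 221 CPM in the WT libraries and 86.9, 91.1 and 89.9 CPM in the Nrf1-KO libraries (log2 fold change -1.28, SE 0.0389, edgeR adjusted p = 1.99e-23), and Cox8a, of complex IV, at 209.9 ± 7.19 CPM in WT and 95.9 ± 6.26 CPM in Nrf1-KO (SD, n = 3; -1.13). The lines did not overlap for Ndufa10. The 2 higher genes were Atp5o (0.26) and Atp5g2 (0.17), of the ATP synthase. Of 14 tested glycolysis genes 11 were lower and 1, Tpi1 (0.10), was higher, with a median of -0.25; in DMSO 9 were lower and 2 higher (median -0.14), and at 6 h 13 were lower (-0.31). The call for Tpi1 was lost when scaled by library size alone and without WT replicate 1 or Nrf1-KO replicate 2 (edgeR adjusted p = 0.0606 and 0.0501). Aldoa, aldolase A, was at 906, 904 and 913 CPM in the WT libraries and 398, 407 and 405 CPM in the Nrf1-KO libraries (log2 fold change -1.17, SE 0.0328, edgeR adjusted p = 2.47e-24), and Pgam1 (-0.74), Pfkm (-0.74) and Gpi1 (-0.73) followed it.

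Cytosolic ribosomal protein genes went the other way, with 58 of 80 tested higher, 3 lower and 19 not called (median 0.21), after 49 had been lower in DMSO (median -0.14) and 63 at 6 h (-0.22). Rpl3, of the large subunit, was at 941, 954 and 934 CPM in the WT libraries and 1441, 1518 and 1678 CPM in the Nrf1-KO libraries (log2 fold change 0.71, SE 0.0396, edgeR adjusted p = 1.35e-16), and 45.5% of its transcript stretches are shared with a pseudogene, as is common in this family. The 3 lower genes were Rpl34 (-0.48), Rpl11 (-0.16) and Rpl7 (-0.10), and the call for Rpl34 was lost without replicate 1 or 2 of either line (edgeR adjusted p from 0.0531 to 0.073). The call for Rpl7 was lost with DESeq2 (adjusted p = 0.0751), with upper-quartile scaling, in the model of the compared groups, and without WT replicate 2 or 3 or Nrf1-KO replicate 1 or 2 (edgeR adjusted p from 0.0568 to 0.54). Of 25 genes of cholesterol and fatty acid synthesis 21 were higher and 2 lower, Acaca (-0.23) and Lss (-0.17), with a median of 0.36 (0.096 in DMSO). Insig1, a sterol-regulated anchor of the SREBP system, was at 62.2, 59.5 and 64.7 CPM in the WT libraries and 148, 145 and 158 CPM in the Nrf1-KO libraries (log2 fold change 1.27, SE 0.0477, edgeR adjusted p = 4.88e-21). Dhcr7, the last enzyme of cholesterol synthesis, was at 20.03, 21.3 and 23.6 CPM in the WT libraries and 55.1, 50.1 and 47.8 CPM in the Nrf1-KO libraries (log2 fold change 1.22, SE 0.0607, edgeR adjusted p = 7.85e-18). The lines did not overlap for either.

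**Figure D4:**
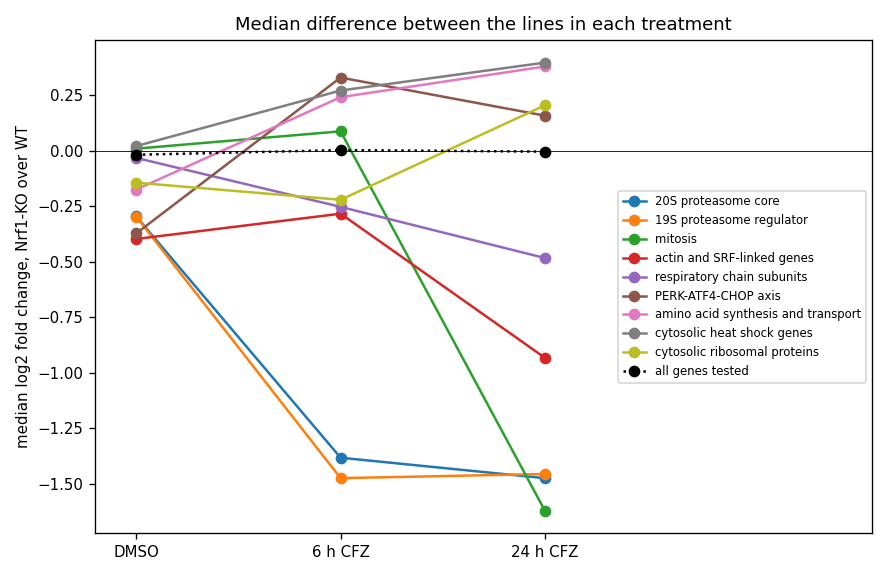
Median log2 fold change of Nrf1-KO over WT (vertical axis) in DMSO, at 6 h and at 24 h of CFZ for 9 gene lists and for all genes tested (dotted). The proteasome medians lie at or below -1.38 at 6 h and 24 h, the mitosis median is near 0 until 6 h and -1.62 at 24 h, and the ribosomal median is below 0 in DMSO and at 6 h and above 0 at 24 h.

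The genes named for the highest ratios also differed without CFZ, and those named for the lowest did so only in part. Among called genes that averaged 50 counts or more, the highest was Aim2, a sensor of cytosolic DNA, at 0.407, 0.3 and 0.434 CPM in the WT libraries and 41.9, 41.4 and 45.7 CPM in the Nrf1-KO libraries (log2 fold change 6.81, SE 0.141, edgeR adjusted p = 1.08e-27; 7.43 in DMSO). Gpnmb, a transmembrane glycoprotein, was at 2.03, 1.08 and 1.3 CPM in the WT libraries and 81.2, 85.1 and 85.9 CPM in the Nrf1-KO libraries (log2 fold change 5.92, SE 0.0957, edgeR adjusted p = 4.69e-30; 5.8 in DMSO). Spink5, a protease inhibitor (5.42), Pi15 (5.06), the ATP-gated channel P2rx3 (4.30), Etl4 (4.26), the sodium channel Scn3a (4.11), Lphn3 (4.11), Cdh19 (3.84), Flrt3 (3.56), the chromatin remodeller Chd7 (3.19), Ranbp3l (3.18), the complement protease C1s (3.12), Tfcp2l1 (3.11) and Kctd4 (3.06) followed. All 15 were called higher in DMSO too.

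At the other end Serpina3n, a serine protease inhibitor, was at 16.9, 15.9 and 16.7 CPM in the WT libraries and 0.0704, 0.333 and 0.634 CPM in the Nrf1-KO libraries (log2 fold change -5.50, SE 0.222, edgeR adjusted p = 3.46e-20; -5.60 in DMSO). Fhl1, an LIM domain protein (-4.76), Cyba, a subunit of the NADPH oxidase (-3.33), Serpina3h (-3.32) and Sumo3 (-3.20) were also called lower in DMSO. In contrast Mmp9, Hmmr, Gen1, Esco2, Iqgap3, the neuronal kinesin Kif5a (-2.99) and Csf1r, the receptor of CSF1 (-3.04), were not called there. Of these, Csf1r alone was not among the genes whose difference was called at least 2-fold apart from that in DMSO. Calr3, a calreticulin paralogue, was at 48.2, 50.2 and 51.9 CPM in the WT libraries and 4.15, 4.66 and 4.69 CPM in the Nrf1-KO libraries (log2 fold change -3.47, SE 0.0804, edgeR adjusted p = 1.99e-26), and it was called higher in DMSO (0.68, edgeR adjusted p = 0.00321). Of the 4948 genes called in both conditions, 1389 (28.07%) had opposite directions, 139 of them at least 2-fold at 24 h.

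The labelled cell type was checked with its markers, whose summed levels are CPM of the library total without TMM scaling. Of 11 tested fibroblast markers 6 were higher and 4 lower, and their summed level was 8227 to 8585 CPM in WT and 10592 to 12714 CPM in Nrf1-KO libraries; Vim, vimentin, was at 1539, 1581 and 1549.7 CPM in the WT libraries and 3452, 3499 and 3402 CPM in the Nrf1-KO libraries (log2 fold change 1.15, SE 0.0333, edgeR adjusted p = 5.95e-24). Lum was at 0 in all 6 libraries. The 6 haematopoietic markers summed to 30.2 to 32.5 CPM in WT and 55.8 to 56.4 CPM in Nrf1-KO, mostly Cd14 (0.85), with Cd3e at 0; Ptprc had 0 counts in WT at 24 h, which allows up to 0.0684 CPM, and 1.2, 1.33 and 1.14 CPM in Nrf1-KO. The 6 epithelial markers summed to 123 to 130 CPM and 80.3 to 82.8 CPM, nearly all Krt14 (-0.59), with Epcam, Krt5 and Krt18 at 0. Endothelial markers (5; Emcn at 0), muscle markers (5; Myod1 and Myog at 0) and adipocyte markers (5; Adipoq, Plin1 and Lep at 0) summed to at most 4.12 CPM, 2.96 CPM and 0.781 CPM. The part of these genes in the results above was not tested. Of 24 tested Hox genes, which mark positional identity, 7 were higher, 3 lower and 14 not called, and none differed 2-fold. Of 8 tested histone genes, whose transcripts mostly lack the poly(A) tail these libraries select, 4 were higher and none lower. Of 11 genes of BET proteins, P-TEFb and BET targets 6 were higher and 2 lower, Foxm1, a factor of mitosis genes (-1.35), and the mitotic kinase Aurkb (-1.34).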

How the data were processed

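RNA was read in 18 NIH-3T3 libraries. From paired reads of stranded mRNA libraries the authors ran RNA Express, a pipeline built on STAR and DESeq2, and deposited 1 table of raw counts, whole reads per gene symbol without normalization. The genome build, the annotation and the use of strand in counting are not given in the sources used here, so reads of near-identical or overlapping genes may be assigned in ways not known here. A spreadsheet had turned 27 symbols into dates, which were not tied to a gene name.

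Groups came from the sample labels. Genes were kept by filterByExpr (minimum count 10, minimum total 15), scaled by TMM and fitted with edgeR 4.0.16 (R 4.3.3) in 1 quasi-likelihood model of the 6 groups, with Benjamini-Hochberg adjustment over 11762 genes at a threshold of 0.05. The SE is the size of the log2 fold change divided by the square root of F. The fit was tested on simulated data. Replicates of a group at 24 h differed by 1.46 to 8.47 in chi-square per degree of freedom, which is more than sampling noise. This value cannot tell separate cultures from repeat libraries of 1 culture. As alternatives, the data were fitted with DESeq2 1.42.0, scaled by upper quartile or library size alone, left unfiltered, filtered at a mean count of 10, fitted on the groups compared alone or with replicate number as a block, fitted without each compared library in turn, and counted at a minimum fold of 2.

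The comparison, the gene lists and the tests were chosen with earlier results of these data known. By rule, names were given to Nfe2l1, the 15 highest and 15 lowest log2 fold changes among called genes averaging 50 counts or more, up to 4 members of each list with the largest difference, the members of any count of 5 or fewer, the genes of the study's primer list, and the 5 genes of opposite direction whose difference moved most; not every gene of the rule is described. Kif23, Srf, Kif11, Top2a, Myl9, Actg1, Psmc6, Psmb5, Psmb6, Adrm1 and Chac1 were named after their values were seen. So were Slc7a11, Nqo1 and Ero1l, which the counts of genes named leave out. Positions came from GENCODE M21 (GRCm38; 289 of 297 genes of the rule matched by symbol) and promoters from RefSeq (GRCm38.p6; 8781 of the 11762 genes tested matched). Shared transcript stretches of 125 bases and overlaps of exonic bases were computed on GENCODE M21, which need not be the authors' annotation. They are given above for some of the named genes only.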

Additional observations from a re-analysis of the deposited data

Results flagged for a closer look

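The genes below were set apart because the difference between the lines at 24 h of CFZ differed from that in DMSO in edgeR's test of the difference itself, by at least 2-fold with an adjusted p under 0.05. Of the 191 genes named and tested, 71 met this, with adjusted p-values of at most 0.00547, and 24 of them were called in opposite directions in the 2 conditions. Each value in parentheses is the log2 difference at 24 h minus that in DMSO.

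Among proteasome subunits and their assembly factors it was more negative at 24 h for Psmb3 (-1.69), Psma1 (-1.31), Psma5 (-1.41), Psma7 (-1.15), Psmc4 (-1.44), Psmd1 (-1.31), Psmd3 (-1.45), Psmd12 (-1.5), Psmd5 (-1.53) and Pomp (-1.08). In the degradation pathway around them it was more negative for Keap1 (-1.56), Ngly1 (-1.05) and Usp14 (-1.33).

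Among genes of mitosis and chromosomes it was more negative for Cenpf (-3.63), Hmmr (-3.74), Nuf2 (-3.34), Gen1 (-3.04), Esco2 (-2.92), Iqgap3 (-2.84), Kif2c (-2.79), Plk1 (-2.57), Mki67 (-2.43), Kif11 (-2.37), Top2a (-1.64), Aurkb (-1.53) and Foxm1 (-1.52). For Cdc45 (-1.20) and Rrm2 (-1.21), of replication, it was negative too.

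In the PERK-ATF4-CHOP axis and among amino acid genes it was more positive for Atf3 (3.07), Ddit4 (2.50), Ddit3 (1.81), Trib3 (1.20), Ppp1r15a (1.07), Pycr1 (1.5) and Slc6a9 (1.13), and among p53 targets, death genes and Fos for Trp53inp1 (1.82), Btg2 (1.04), Bcl2l11 (1.94), Bmf (2.61) and Fos (2.48). In the chaperones it was more positive for Hspa1b (1.89), Hspa1a (1.87) and Dnajb1 (1.18).

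Of actin and matricellular genes it was more negative for Acta2 (-1.46), Cnn2 (-1.46), Tagln (-1.24), Ctgf (-2.07) and Cyr61 (-1.81). Matrix, chemokine and filament genes were more positive for Adamts1 (2.70), Col3a1 (2), Col11a2 (1.15), Dcn (1.23), Ccl2 (1.92), Ccl7 (2.33) and Vim (1.29), and more negative for Mmp9 (-4.38), Cxcl12 (-1.11) and Cxcl5 (-2.95).

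Of metabolic, lysosomal and antioxidant genes it was more negative for Ndufa10 (-1.14), Cox8a (-1.09), Ctsd (-1.05) and Gsr (-1.04), and more positive for Dhcr7 (1.30). Outside the 191 genes it was also more positive for Slc7a11 (1.54) and Nqo1 (1.05), of the antioxidant list, and Ero1l (1.17), of the ER list. Among the genes with the highest and lowest ratios at 24 h it was more positive for Spink5 (2.91), P2rx3 (1.53), C1s (1.03) and Serpina3h (1.31), and more negative for Calr3 (-4.15), Kif5a (-2.91), Kctd4 (-1.87) and Fhl1 (-1.42).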

How the results depend on the processing

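Each count over all genes kept within 1.5 times its value under the alternatives except with a minimum fold of 2, where 789 genes were higher and 651 lower at 24 h, 376 and 208 in DMSO, 507 and 353 at 6 h, and 479 and 533 differed between 24 h and DMSO, since fewer genes reach that fold. List medians moved by more than the replicate spread in some settings. With upper-quartile scaling they were 0.241 for ER folding, 0.2003 for the PERK axis, 0.422 for amino acid genes, 0.439 for heat shock genes and 0.403 for cholesterol genes, and with library size alone 0.35 for amino acid and 0.331 for cholesterol genes. The PERK median was 0.111 at a mean count of at least 10 and 0.123 on the groups compared alone. Without 1 library in turn the medians ran from -1.5 to -1.38 for the 19S regulator, from 0.146 to 0.201 for the PERK axis, from 0.351 to 0.409 for heat shock genes and from 0.332 to 0.37 for cholesterol genes. None of these medians turned direction. The counts of the 38 lists were recomputed at 24 h under the other scalings, DESeq2 and the block alone. They moved beyond 1.5 times for 2 lists: higher genes went from 0 to 1 for assembly chaperones (upper quartile) and from 1 to 0 for glycolysis (library size alone). Some others moved by 1.5 times. For example, lower genes went from 15 to 10 for DNA replication (upper quartile) and from 4 to 6 for the BCL2 family (library size alone). With upper quartile, higher genes went from 4 to 6 for autophagy and from 2 to 3 for the respiratory chain. The medians of 5 lists close to 0 turned sign: with upper quartile NF-kB genes (0.012), lysosome (0.019) and endothelial markers (0.041, and 0.0098 with DESeq2), and with library size alone collagens (-0.011) and the BCL2 family (-0.0053). The sign of Asns turned with upper-quartile scaling (0.0077), and without 1 library its log2 fold change ran from -0.047 to 0.0016; that of Col1a1 ran from -0.22 to 0.016. For the single genes the cause was not tested. The median of all genes moved from -0.0031 to 0.0385 with upper-quartile scaling and to -0.0333 with library size alone, which shifts each list by that much. Of the 191 genes named, 179 kept direction and side of the threshold under each alternative that gave a value, and 12 did not. Deviations of same-numbered libraries of the lines had correlations near 0 (0.062, 0.012 and -0.0049, beside -0.0518 to 0.0426 between different numbers). Only that of replicate 1 lay above the range between different numbers, and not every library correlated best with its own number. With the replicate block 4217 genes were higher and 4312 lower at 24 h, and only the calls of Psmg3 (lost, adjusted p = 0.0525) and Col1a1 (gained, adjusted p = 0.0392) changed among the genes named, both by edgeR. At 10069996 to 18923605 counts per library, a gene with no count in 1 group may still be present below the limits given.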
